A study of Mus musculus with 2 samples.

Results

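Acsl4, Acsl3, Lpcat3, Aifm2, Gch1, Ptgs2, Scd1, Scd2 and Plin2, 9 genes that feed, hold back or mark lipid peroxidation, were followed through a mouse colon tumour treated with an antibody against SLC7A11. They were taken by gene name from both expression tables, 9 of 34400 gene identifiers, and all 9 were present in both. SLC7A11 is the subunit of the cystine/glutamate antiporter that imports cystine. The tumours grew from CT26, an established mouse colon carcinoma line, and each group was 1 droplet library of 3' transcript tags: mice given SLC7A11 antibody, and mice given control IgG. Dosing with either agent was 10 mg/kg, repeated every 2 days, and began once tumours measured 50 to 100 mm³; the submitters' text describes the site both as the caecum and as subcutaneous. The labels do not say how many mice went into a library or give their strain, sex or age.

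Ferroptosis is a form of cell death that follows from iron-dependent oxidation of polyunsaturated fatty acids in membrane phospholipids. ACSL4 activates arachidonic and adrenic acid with coenzyme A and LPCAT3 inserts such acyl chains into phospholipids, which supplies the oxidisable substrate. SCD1 and SCD2 make monounsaturated fatty acids, which ACSL3 activates and which take the place of oxidisable chains. AIFM2, also called FSP1, reduces ubiquinone to a radical-trapping form, and GCH1 is the rate-limiting enzyme of tetrahydrobiopterin, another radical trap. PTGS2, the inducible cyclooxygenase, is widely used as a marker of ferroptosis, and PLIN2 coats the lipid droplets in which neutral lipid is stored.

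The antibody library held 12153 barcodes with 143658800 UMIs (unique molecules counted) and the control library 13910 barcodes with 129044329 UMIs. After filtering, 10897 and 12326 cells remained, and 39 barcodes occurred in both tables. Cells were put in a class by UMIs of marker genes, with minimums set after seeing the data. Tumour-gated cells (2847 antibody, 5361 control) had at least 3 UMIs of at least 2 tumour markers such as keratins, no UMI of 4 Y-linked genes and host markers at a low level. Dcn-high tumour cells (630 and 1109) had tumour-marker UMIs with at least 25 decorin UMIs per 10000. The host classes were macrophage (947 and 810), T (689 and 195), neutrophil (187 and 132), monocyte (224 and 37), NK (123 and 51) and fibroblast (70 and 47), 5070 antibody and 4535 control cells were left ungated, and smaller classes are not described. Y-linked UMIs ran from 124 to 304 CPM in these host classes. The labels name the cells as goblet cells, but 7 goblet markers gave 129 UMIs in all antibody cells and 193 in all control cells, and no cell passed a goblet gate. Antibody cells were deeper in the described classes other than NK, with a median of 19734 against 11738 UMIs in tumour-gated cells and 5528 against 3409 UMIs in macrophage-gated cells. NK-gated cells had medians of 1281 with antibody and 1553 with control IgG, and all cells together 7201 and 7052 UMIs. Levels are the UMIs of a gene per 1000000 UMIs of the class (CPM), and each bracketed interval is an exact 95% interval that covers counting error only. Each group being a single library, differences could not be checked against replicates and no test was made.

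The genes lie on 7 chromosomes in build GRCm38 (mm10), all protein coding in RefSeq. Scd2 (chr19:44293676-44306864) and Scd1 (chr19:44394450-44407709) lie on the same chromosome. Acsl3 (chr1:78657825-78707743) and Ptgs2 (chr1:150100031-150108234) share chromosome 1. Plin2 is at chr4:86626910-86670217, Lpcat3 at chr6:124663094-124704716, Aifm2 at chr10:61715263-61739260, Gch1 at chr14:47153895-47189413 and Acsl4 at chrX:142317993-142390802. In GENCODE M21, Acsl3 shares its span and strand with Utp14b, which was at 4.02 CPM in antibody and 3.36 CPM in control tumour-gated cells (log2 ratio 0.26), and how reads in the shared span were counted is not given in the sources used here. Gch1 contains a pseudogene on its own strand, Gm18811, with 22 and 12 UMIs in the same cells. Lpcat3 overlaps Emg1 on the other strand, which was at 474 and 503 CPM in these cells. Whether counting kept the strands of Lpcat3 and Emg1 apart is not given in the sources used here.

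RefSeq's promoter table (GRCm38.p6) matched 7 of the 9 genes, all but Scd1 and Scd2. The 250 bases before the start are shown for 3 genes that moved in different ways in hypoxic tumour cells, as described further on, with matches to the core of the hypoxia response element (ACGTG or GCGTG, either strand) in capitals. In this orientation a reverse-strand GCGTG reads CACGC.
Plin2, chr4:86670060-86670309, minus strand: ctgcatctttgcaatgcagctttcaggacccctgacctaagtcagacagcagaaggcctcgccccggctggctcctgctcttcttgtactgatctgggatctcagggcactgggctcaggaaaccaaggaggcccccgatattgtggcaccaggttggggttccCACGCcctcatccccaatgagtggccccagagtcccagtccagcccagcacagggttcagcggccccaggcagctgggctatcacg
Ptgs2, chr1:150099781-150100030, plus strand: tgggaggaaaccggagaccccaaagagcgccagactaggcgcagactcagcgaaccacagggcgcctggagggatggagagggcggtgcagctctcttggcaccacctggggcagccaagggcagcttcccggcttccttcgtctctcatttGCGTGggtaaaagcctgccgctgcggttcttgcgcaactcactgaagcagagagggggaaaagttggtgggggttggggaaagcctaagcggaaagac
Lpcat3, chr6:124662854-124663103, plus strand: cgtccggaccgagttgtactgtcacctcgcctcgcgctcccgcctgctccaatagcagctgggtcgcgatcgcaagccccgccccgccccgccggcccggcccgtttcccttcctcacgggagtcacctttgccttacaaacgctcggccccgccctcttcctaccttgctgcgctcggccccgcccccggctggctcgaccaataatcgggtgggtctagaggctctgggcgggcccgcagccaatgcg
Plin2 and Ptgs2 each held 1 GCGTG, beginning 86 and 98 bases before the start, and Lpcat3 held no match. The start is the one in RefSeq's promoter table, and for Plin2, Lpcat3, Acsl4 and Aifm2 it lies inside the gene span given above, so that the Plin2 match is also within that span. Acsl4 and Acsl3 also held 1 GCGTG each, so that 4 of the 7 windows had a match, all of GCGTG and none of ACGTG. Of 27025 RefSeq windows of this length, 28.2% held GCGTG, 16.6% held ACGTG and 38.6% held either. A match describes the letters and is not evidence of binding.

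The question of where the genes are read was taken up before that of treatment. Substrate genes were spread over most classes. In control neutrophil- and monocyte-gated cells Acsl4 had 2 UMIs each, and Lpcat3 had 0 and 3 UMIs. Acsl4 was at 60.7 CPM in antibody and 76.0 CPM in control macrophage-gated cells, at 46.3 and 42.8 CPM in Dcn-high tumour cells and at 33.5 and 30.8 CPM in tumour-gated cells. Fibroblast-gated cells had 55.5 and 82.6 CPM. No class had an interval apart from that of its neighbour in the order of levels, in either library. Some classes further apart in the order did separate. Tumour-gated intervals, 32.1 to 35.0 and 29.5 to 32.2 CPM, lay below those of Dcn-high tumour, macrophage- and fibroblast-gated cells. Dcn-high tumour intervals were 41.65 to 51.3 and 38.3 to 47.75 CPM, and macrophage-gated ones 54.4 to 67.5 and 66.5 to 86.3 CPM. Lpcat3 was highest in fibroblast-gated cells in both libraries, at 61.7 CPM (interval 45.8 to 81.4) with antibody and 87.5 CPM (61.3 to 121) with control IgG. In the antibody library this interval overlapped that of macrophage-gated cells (41.7 CPM), and in the control library it did not (42.5 CPM). The other 6 classes lay between 19.0 and 40.5 CPM in the antibody library and between 0 and 39.5 CPM in the control library.

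The desaturases had their highest point values in the tumour gates. Scd1 was at 123 CPM in antibody and 118 CPM in control tumour-gated cells, and at 121 and 126 CPM in Dcn-high tumour cells. Fibroblast-gated cells had 38.3 and 63.2 CPM of Scd1, and macrophage-gated cells had 9.81 and 9.74 CPM. At an equal depth of 1000 UMIs per cell, 10.9% of antibody and 11.4% of control tumour-gated cells had a Scd1 UMI, against 1.43% and 1.22% of macrophage-gated cells. Without thinning the shares were 85.4% and 70.1% in tumour-gated and 5.49% and 3.46% in macrophage-gated cells. Free RNA was not corrected for, and its part in the share of macrophage-gated cells was not tested. Scd2 had a flatter spread, with 222 and 179 CPM in tumour-gated cells, 85.9 and 103 CPM in T-gated cells and 74.6 and 62.0 CPM in macrophage-gated cells. Fibroblast-gated cells had 134.5 and 163 CPM of Scd2. Their control interval (126 to 207 CPM) overlapped those of both tumour gates. So did that of control monocyte-gated cells (116 CPM from 11 UMIs, 58.0 to 208). The control NK-gated interval of Scd2 (54.3 to 194.5 CPM) overlapped that of tumour-gated cells. For Scd1, the interval of control neutrophil-gated cells (52.8 CPM from 5 UMIs, 17.1 to 123) overlapped those of both tumour gates. Acsl3 was at 27.8 and 12.8 CPM in tumour-gated and 28.1 and 17.3 CPM in Dcn-high tumour cells, and at 8.92 and 10.4 CPM in macrophage-gated cells. Fibroblast-gated cells had 14.8 and 21.9 CPM of Acsl3 from 12 and 9 UMIs, and the control value was the highest point value of that library. In the control library Acsl3 had 0 UMIs in monocyte-, neutrophil-, T- and NK-gated cells, which allows a level of up to 31.7, 31.7, 8.56 and 29.6 CPM at 3 UMIs per class sum; the exact intervals end higher, at 38.96, 38.95, 10.5 and 36.45 CPM.

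The genes of the 2 enzymes that supply radical traps had point values of at most 44.3 CPM in every class. Aifm2 stood between 0 and 15.7 CPM over the antibody classes and between 0 and 31.6 CPM over the control classes, with the intervals of neighbours in the order overlapping throughout in both libraries. Dcn-high tumour cells had the highest antibody value, 15.7 CPM, and fibroblast-gated cells the highest control value, 31.6 CPM from 13 UMIs. Gch1 was at 32.5 CPM in antibody and 12.8 CPM in control tumour-gated cells. In neutrophil-gated cells Gch1 had 44.3 CPM from 7 UMIs and 42.2 CPM from 4 UMIs, the highest point values in both libraries, with intervals of 17.8 to 91.3 and 11.5 to 108 CPM that do not separate them from other classes.

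Ptgs2 and Plin2 had their highest point values in neutrophil-gated cells. Ptgs2 was at 665 CPM in antibody and 591 CPM in control neutrophil-gated cells, apart from every other class by its interval. Next came monocyte-gated cells with antibody (323 CPM) and Dcn-high tumour cells (284 and 186 CPM), while T-gated cells had 32.7 and 19.97 CPM. Tumour-gated cells had 212 and 158 CPM of Ptgs2, less than Dcn-high cells in both libraries, with intervals that did not overlap. Plin2 was at 342 CPM in antibody and 803 CPM in control neutrophil-gated cells, 257 and 623 CPM in monocyte-gated cells and 327 and 543 CPM in macrophage-gated cells. The neutrophil interval overlapped that of the next class in both libraries. Only 25 antibody and 10 control neutrophil-gated cells reached 1000 UMIs, so that the class could not be ranked at that depth or with a stricter cell filter, where Dcn-high tumour cells were highest for Ptgs2 and monocyte-gated cells for Plin2. Of these few cells, 44.0% and 50.0% had a Ptgs2 UMI at equal depth, against 21.6% and 13.95% of Dcn-high tumour cells. For Plin2 the shares were 24.0% and 10.0%, against 20.5% and 54.1% of monocyte-gated cells. Tumour-gated cells had 101 and 119 CPM of Plin2 and T-gated cells 44.9 and 54.2 CPM. Neutrophil-gated cells were shallow, with median depths of 752 and 659 UMIs, and macrophage markers summed to 722 and 634 CPM in them, against 27080 and 25250 CPM in macrophage-gated cells; the part of these in the neutrophil values was not tested.

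**Figure D1:**
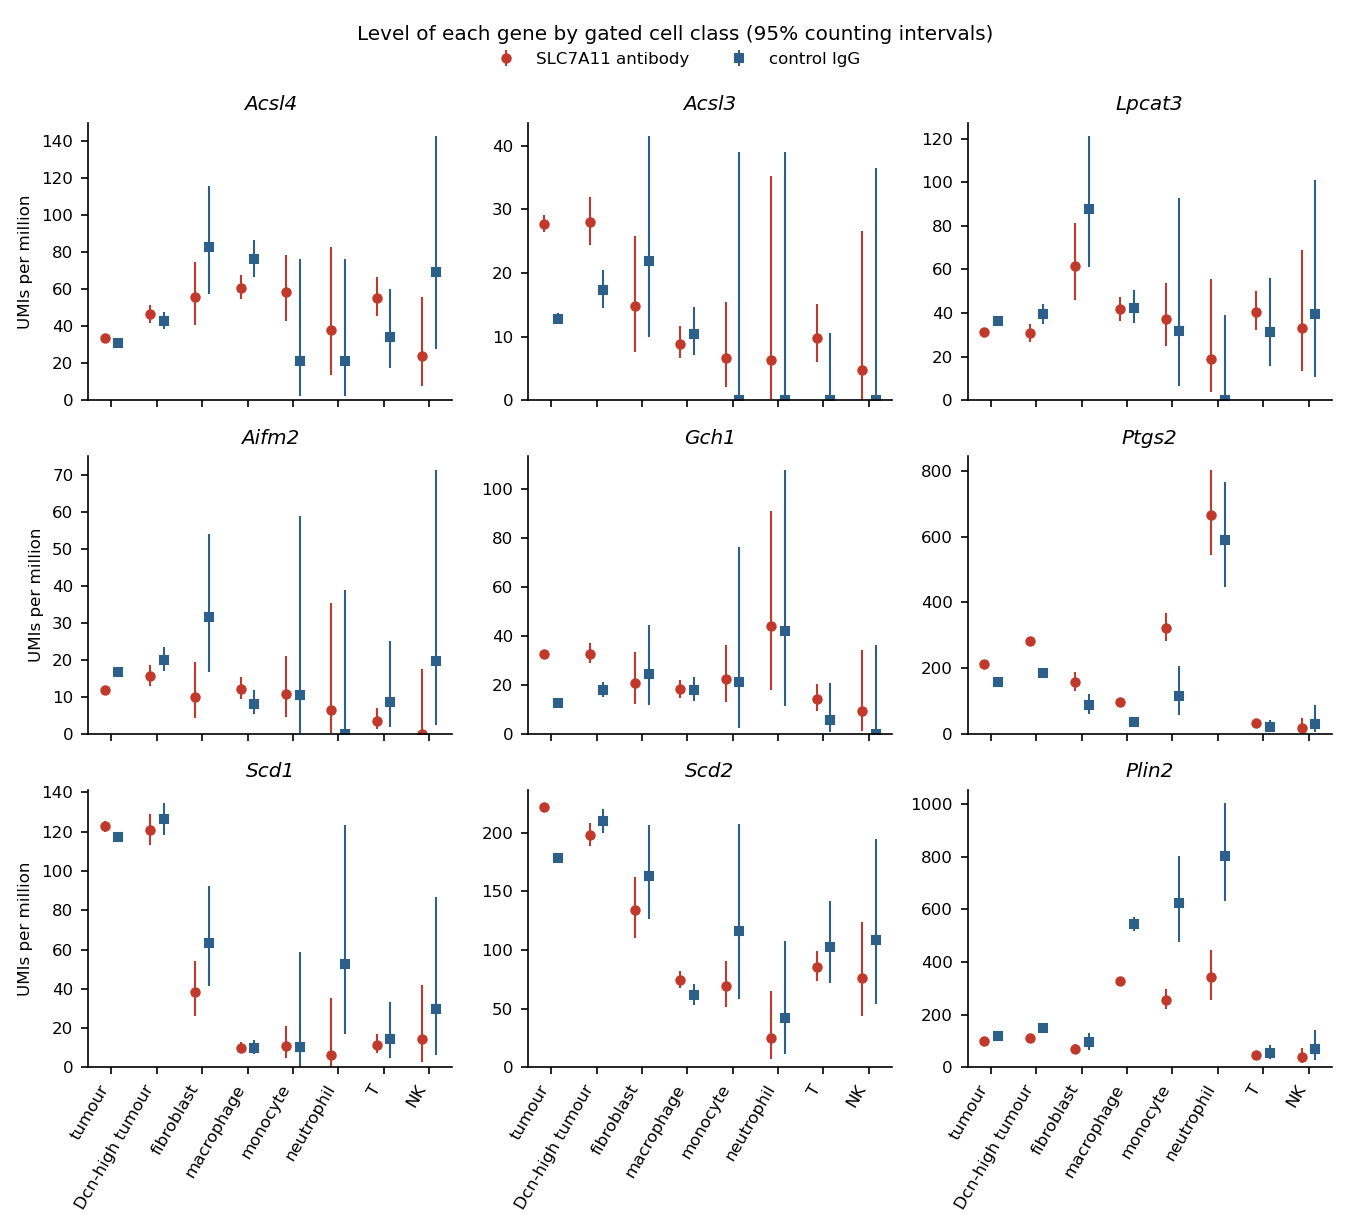
Level of each gene, in CPM, in 8 gated classes of the antibody library (red circles, left) and the control library (blue squares, right), with exact 95% Poisson intervals for counting error. Scd1 is at 123 and 118 CPM in tumour-gated cells and near 10 CPM in macrophage-gated cells, and Plin2 is lower with antibody in macrophage-, monocyte- and neutrophil-gated cells.

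Genes with the most similar profile were sought over 16 points (8 classes in 2 libraries) among 12724 genes, by Pearson's r of log2(CPM + 1). The points share 2 libraries and differ widely in depth, so r is a description only. Plin2 was closest to the ferritin light chain gene Ftl1 (r = 0.953), the endotoxin co-receptor Cd14 (0.942) and Ankrd66 (0.938). Ptgs2 was closest to Ptgs2os2, an antisense transcript by its name (0.943), the adhesion receptor Cd44 (0.920) and Sgms2 (0.917); whether counting kept the strands of Ptgs2 and Ptgs2os2 apart is not given in the sources used here. Gch1 was closest to Trib1, Nadk and Myadm (0.947 to 0.926), Scd1 to Nradd, Npas3 and Tenm3 (0.946 to 0.922), and Scd2 to Hspb8, Uqcc2 and Pebp1 (0.942 to 0.928). Acsl3 was closest to Slc35e4, the lactate transporter gene Slc16a1 and Rassf8 (0.956 to 0.947), Lpcat3 to the calcium pump gene Atp2a2, Ppfia1 and Gorasp2 (0.989 to 0.969), Aifm2 to Kctd3, Nr6a1 and Lrig2 (0.947 to 0.910) and Acsl4 to Slc36a4, Gba2 and Tlnrd1 (0.882 to 0.844). Among the 36 pairs of the 9 genes, Scd1 with Scd2 (0.749) and Gch1 with Ptgs2 (0.704) were the most alike, and Lpcat3 with Plin2 (-0.503) the least.

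The effect of the antibody on tumour cells is the main comparison of the design. Acsl3 and Gch1 were higher with antibody in tumour-gated cells, and the other 7 genes differed by less than 2-fold. Gch1 had 2060 UMIs, 32.5 CPM, in antibody and 883 UMIs, 12.8 CPM, in control tumour-gated cells, a log2 ratio of 1.34 (1.23 to 1.46). Acsl3 had 1759 UMIs, 27.8 CPM, in antibody and 882 UMIs, 12.8 CPM, in control cells, a log2 ratio of 1.12 (1.00 to 1.24). Thus 2 of the 9 genes were at least 2-fold higher and 0 at least 2-fold lower, while of 17380 genes with at least 20 UMIs 11.3% were at least 2-fold higher and 4.45% at least 2-fold lower. The median of the 9 log2 ratios was 0.12, against -0.16 over all genes. Set against the median of all genes, the 2 log2 ratios were 1.501 and 1.275. At equal depth, 3.17% of antibody and 1.35% of control tumour-gated cells had a Gch1 UMI, against 1.30% and 0.752% of T-gated cells, and 2.92% and 1.37% an Acsl3 UMI, against 0.651% and 0% of T-gated cells (0 of 133 control cells, an exact upper bound of 2.74%).

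Among the rest, Ptgs2 was at 212 CPM in antibody and 158 CPM in control tumour-gated cells (log2 ratio 0.43) and Scd2 at 222 and 179 CPM (0.31). Aifm2 was at 11.8 and 16.7 CPM, a log2 ratio of -0.50 (-0.64 to -0.37). Plin2 (-0.24) and Lpcat3 (-0.21) lay near the median of all genes. Hypoxia genes, followed further on, summed to 4646 CPM in antibody and 2731 CPM in control tumour-gated cells, and Plin2 was at -0.46 among cells below 1 hypoxia cut for both libraries and at -0.03 among cells of 10000 to 20000 UMIs. Acsl4, whose enzyme activates polyunsaturated chains, was at 33.5 and 30.8 CPM (0.12), and Scd1 at 123 and 118 CPM (0.06); both ratios changed sign when cells were thinned to 1000 UMIs. Macrophage markers, all 9 of which were detected, summed to 125 CPM in antibody and 44.0 CPM in control tumour-gated cells, and cycling markers to 1253 and 1547 CPM; their part in the ratios was not tested. Gch1 and Acsl3 were also past 2-fold among cells of 10000 to 20000 UMIs (1.43 and 1.27) and among cells with no UMI of 6 cycling markers (1.10 and 1.32).

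Dcn-high tumour cells had 0 of the 9 genes past 2-fold in either direction, against 9.38% of 12297 genes higher and 4.9% lower. Gch1 was at 32.8 CPM with antibody and 18.0 CPM with control IgG (log2 ratio 0.87, 0.56 to 1.18), and Acsl3 at 28.1 and 17.3 CPM (0.70, 0.38 to 1.02). Ptgs2 was at 284 and 186 CPM (0.61) and Plin2 at 110 and 149 CPM (-0.44). Scd2 was at 198 and 210 CPM (-0.08) and Scd1 at 121 and 126 CPM (-0.06). Gch1, Acsl3, Ptgs2 and Plin2 had the sign seen in tumour-gated cells and Scd2 and Scd1 had the other, and the difference between the 2 gates was not tested.

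In macrophage-gated cells it was Ptgs2 that stood out, the 1 gene of 9 at least 2-fold higher, with 0 at least 2-fold lower, against 8.77% and 4.92% of 11063 genes. Ptgs2 had 550 UMIs, 98.1 CPM, in antibody and 115 UMIs, 37.3 CPM, in control macrophage-gated cells, a log2 ratio of 1.39 (1.10 to 1.70), and 8.94% and 4.61% of cells had a Ptgs2 UMI at equal depth, against 4.07% and 1.504% of T-gated cells. Plin2 was at 327 and 543 CPM (-0.73, -0.83 to -0.64), with 25.7% and 35.0% of cells having a UMI at equal depth. Gch1 (0.02) and Acsl3 (-0.23) were close to even, at 18.2 and 17.9 CPM and at 8.92 and 10.4 CPM. Other genes of the macrophage gate differed between the libraries too. Apoe, which marks many tissue macrophages, was at 3959 and 701 CPM and Mrc1, a mannose receptor, at 652 and 1298 CPM. C1qc was at 6859 and 3167 CPM while its partner subunits C1qa (8434 and 11180 CPM) and C1qb (4453 and 5824 CPM) were lower with antibody. T markers in the gate summed to 27.1 and 5.19 CPM. The part of these differences in Ptgs2 and Plin2 was not tested.

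Neutrophil-gated cells had enough UMIs for 2 genes. Plin2 had 54 UMIs, 342 CPM, with antibody and 76 UMIs, 803 CPM, with control IgG, a log2 ratio of -1.23 (-1.76 to -0.71), and Ptgs2 was at 665 and 591 CPM (0.16). This was 0 of 2 genes at least 2-fold higher and 1 of 2 at least 2-fold lower, where 15.3% and 6.82% of 1598 genes were. In T-gated cells 8 genes could be read, with 1 at least 2-fold higher and 0 lower, against 10.3% and 6.75% of 8652 genes. That gene was Gch1, with 29 UMIs in antibody and 2 UMIs in control cells (14.2 and 5.70 CPM), a log2 ratio of 1.01 whose interval ran from -0.67 to 4.42. Acsl3 had 20 UMIs in antibody and 0 in control T-gated cells, and the exact interval of its log2 ratio began at -0.24 and had no upper end, so that it included no difference.

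Read across the classes, Plin2 was lower in the antibody library in all 7 with at least 20 UMIs, with 5 intervals wholly below 0. The log2 ratios were -0.24 in tumour-gated, -0.44 in Dcn-high tumour, -0.73 in macrophage-, -1.29 in monocyte- and -1.23 in neutrophil-gated cells, where the interval was below 0. They were -0.49 in fibroblast- and -0.30 in T-gated cells, where it was not. The median of all genes was also below 0 in each of these classes. Set against it, Plin2 was at -0.09 in tumour- and -0.16 in T-gated cells, near the median. In the others it was at -0.255 (Dcn-high tumour) to -1.23 (neutrophil-gated). Ptgs2 was higher in the same 7, with 5 intervals above 0, including 1.41 (0.61 to 2.50) in monocyte-gated cells from 243 and 11 UMIs and 0.84 (0.31 to 1.43) in fibroblast-gated cells. Gch1 and Acsl3 had intervals above 0 in the 2 tumour gates. So did Scd2 in tumour- (0.31) and macrophage-gated cells (0.26), and Acsl4 (0.12) and Scd1 (0.06) in tumour-gated cells. Aifm2 had intervals below 0 in tumour-gated (-0.50) and fibroblast-gated cells (-1.645, -3.155 to -0.298, from 8 and 13 UMIs). Lpcat3 was below 0 by its interval in the 2 tumour gates (-0.21 and -0.36), and Acsl4 in macrophage-gated cells (-0.33). All classes come from the same 2 libraries, so that a shared sign is not repeated evidence.

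**Figure D2:**
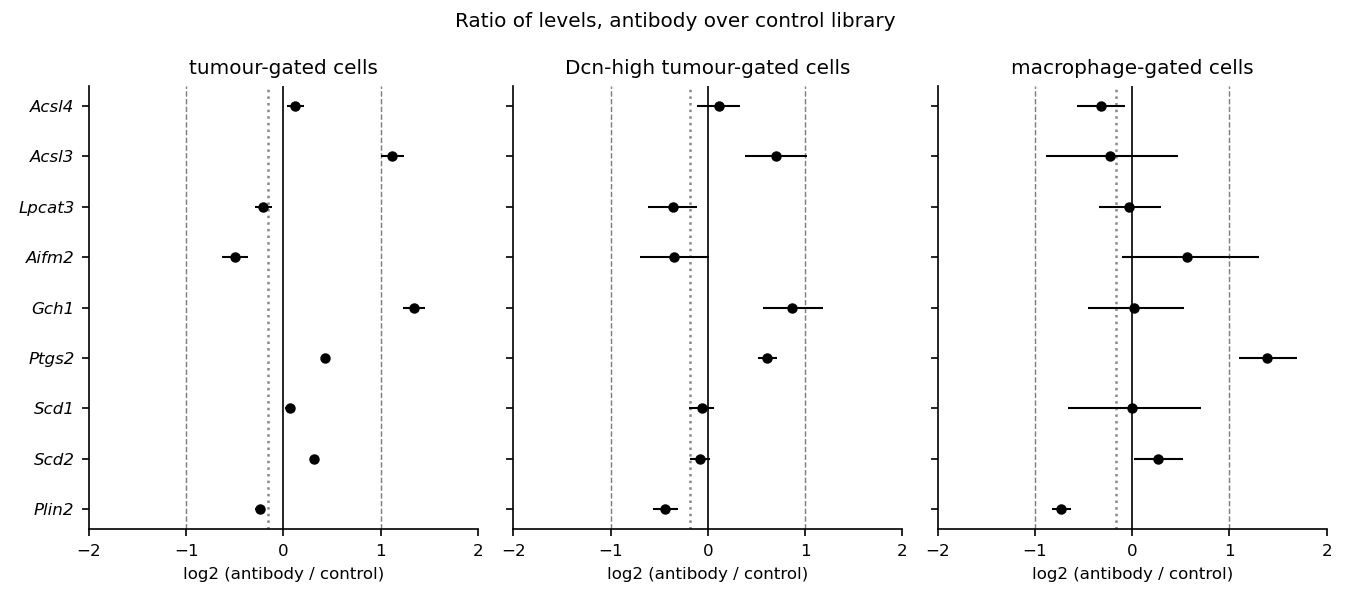
Log2 ratio of levels, antibody over control library, for each gene in tumour-, Dcn-high tumour- and macrophage-gated cells, with exact 95% intervals for counting error; dashed lines mark 2-fold and the dotted line the median of all genes. Gch1 (1.34) and Acsl3 (1.12) are past 2-fold in tumour-gated cells and Ptgs2 (1.39) in macrophage-gated cells.

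Of the other genes of these pathways, 113 on 10 lists, 97 could be read in tumour-gated cells: 12 were at least 2-fold higher with antibody, 5 at least 2-fold lower and 80 within 2-fold, shares near the 11.3% and 4.45% of all genes, with a median log2 ratio of -0.13 against -0.16. Beside Gch1, the tetrahydrobiopterin list had 2 of 5 read genes higher and 3 within 2-fold. Spr, sepiapterin reductase, which completes tetrahydrobiopterin, was at 156 CPM in antibody and 20.6 CPM in control tumour-gated cells (log2 ratio 2.92), and Qdpr, which recycles it, at 104 and 32.6 CPM (1.67). Pts (-0.48) and Gchfr (-0.73), the feedback regulator of GCH1, lay on the other side. Spr and Qdpr were also past 2-fold in Dcn-high tumour (2.96 and 1.45) and macrophage-gated cells (2.29 and 1.35), where Gch1 was at 0.87 and 0.02. In T-gated cells Spr was at 1.95 and Qdpr at 0.32. With 1 library per group, a property of the library and a response to the antibody cannot be told apart.

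Ptges3, a prostaglandin E synthase that is also a cochaperone, was the 1 higher gene of 9 read on the prostaglandin list in tumour-gated cells, where 1 was lower and the list's median was -0.46. Pla2g4a, the phospholipase that frees arachidonic acid, was at 43.2 and 82.5 CPM (-0.93), and Ptgs1 (-0.50) and Ptges (-0.26) were also below 0. Ptges3 was past 2-fold in the 5 classes read, with 553 and 180 CPM in tumour-gated cells (1.62), 1.75 in Dcn-high tumour, 1.40 in macrophage-, 1.16 in neutrophil- and 1.64 in T-gated cells. Insig1, which holds back sterol-driven lipid synthesis, was at 15.1 and 5.64 CPM in tumour-gated cells (1.43). The lipid droplet list had 4 of 18 read genes higher and 0 lower, against 11.3% and 4.45% of all genes. Of the genes past 2-fold, Fabp5 (5.63 and 2.19 CPM, 1.36), Plin4 (0.663 and 0.232 CPM, 1.49) and Cd36 (0.505 and 0.145 CPM, 1.75) were low, as were Mgst1 (1.06 and 0.217 CPM, 2.25), Cybb (3.63 and 0.913 CPM, 1.98) and Lpcat2 (0.631 and 0.174 CPM, 1.82). Fabp5 and Cd36 were read far more in macrophage-gated cells, at 917 and 455 CPM and at 86.5 and 30.8 CPM, and macrophage markers in tumour-gated cells were at 125 and 44.0 CPM; their part in these ratios was not tested. The remaining 2 higher genes were the acyltransferase gene Mboat7 (25.3 and 12.3 CPM, 1.04) and Dgat1 of triglyceride synthesis (5.95 and 2.94 CPM, 1.01). The lower genes were Akr1c13 (-2.96), Coq8a of ubiquinone synthesis (-2.32), Acsbg1 (-1.67), Ptgds (-1.57) and Cyb5r1 (-1.08), a reductase at 104 and 220 CPM that has been linked to phospholipid peroxidation. Gpx4, which reduces lipid hydroperoxides, was at 137 and 224 CPM (-0.70), and the antibody's target gene Slc7a11 at 21.8 and 17.5 CPM (0.32), both within 2-fold. In Dcn-high tumour cells 88 list genes could be read, with 8 higher and 6 lower, against 9.38% and 4.9% of all genes.

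In macrophage-gated cells 9 of 87 list genes were at least 2-fold higher and 4 at least 2-fold lower, shares near the 8.77% and 4.92% of all genes. Beside Spr, Qdpr and Ptges3, the higher ones were the scavenger receptor Cd36 (1.48), Lipe (1.13), Mgst1 (1.11), Acsl1 (90.1 and 43.8 CPM, 1.04), Insig1 (1.01) and Fabp5 (1.01). The lower ones were the lipoxygenase Alox5 (23 and 43 UMIs, -1.75), the constitutive cyclooxygenase Ptgs1 (17.0 and 56.8 CPM, -1.74), Abhd5 (-1.04) and Cyb5r1 (-1.02). Ptgs1 was thus on the other side of 0 from Ptgs2 (1.39), the inducible enzyme of the same reaction. In neutrophil-gated cells, where 15 list genes could be read with 3 higher and 1 lower (15.3% and 6.82% of all genes), the lower one was Hilpda, which like Plin2 belongs to lipid droplets, at 228 and 803 CPM (-1.81). In T-gated cells 7 of 67 were higher and 8 lower, against 10.3% and 6.75% of all genes.

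Within each library, tumour-gated cells of at least 2000 UMIs were ranked by the share of UMIs from 18 hypoxia genes, none of them among the 9, and the top 10% were called hypoxic: 283 hypoxic and 2541 other antibody cells, and 527 hypoxic and 4741 other control cells. Such a cut is a range of a score and not a cell type, and 189 antibody and 231 control cells lay within 10% of it. The cut was at 102 hypoxia UMIs per 10000 in the antibody library and 60.1 in the control library. Car9, a carbonic anhydrase of hypoxic tumours and part of the list, was at 266 against 55.7 CPM in antibody and 221 against 19.2 CPM in control hypoxic and other cells. Hypoxic cells were shallower, with medians of 15230 against 20384 UMIs in the antibody and 9374 against 12159 UMIs in the control library, and had fewer cycling-marker UMIs, 508 against 1312 CPM and 1020 against 1593 CPM. The 3 C1q genes, macrophage markers, summed to similar levels in hypoxic and other cells, 80.1 against 73.1 CPM and 24.8 against 26.3 CPM.

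Plin2 was higher and Lpcat3 lower in the hypoxic cells of both libraries. In the antibody library Plin2 was at 221 CPM in hypoxic and 91.3 CPM in other tumour-gated cells, a log2 ratio of 1.28 (1.18 to 1.37). In the control library it was at 214 and 111 CPM, a log2 ratio of 0.94 (0.85 to 1.03), just short of 2-fold. In the antibody library 1 of 9 genes was therefore at least 2-fold higher and 0 lower, against 3.92% and 8.17% of 15194 genes, and in the control library 0 of 9 in either direction, against 4.08% and 4.52% of 15236 genes. Lpcat3 was at 19.3 CPM in hypoxic and 32.2 CPM in other antibody cells (-0.74, -1.07 to -0.44) and at 20.4 and 37.5 CPM in control cells (-0.88, -1.17 to -0.61). The medians of the 9 log2 ratios, -0.12 in the antibody and -0.09 in the control library, were close to those of all genes, -0.11 in each. Among cells of 10000 to 20000 UMIs, Plin2 stood at 1.09 and 0.92 and Lpcat3 at -0.89 and -0.80. Among the few cells with no cycling-marker UMI (72 hypoxic antibody and 173 hypoxic control cells), Plin2 was under 2-fold in both libraries, at 0.79 and 0.69, and Lpcat3 stood at -0.46 and -0.98. Acsl3 was then at -1.20 in the antibody library. With Car9-positive cells set against Car9-negative ones, Plin2 was at 0.71 and 0.36 and Lpcat3 at -0.25 and -0.24. With cells thinned to 1000 UMIs, Plin2 was at 1.45 and 0.95 and Lpcat3 at -0.996 and -0.22. The control value of Lpcat3 was then much nearer 0. Thinning leaves few Lpcat3 UMIs in hypoxic cells, and counting error was not told apart from the change of setting.

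**Figure D3:**
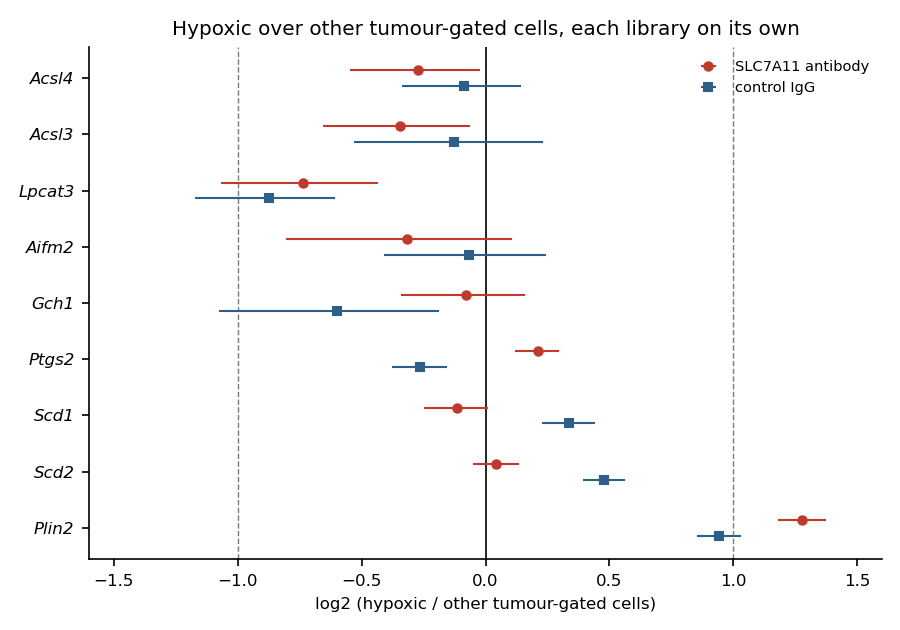
Log2 ratio of levels, hypoxic over other tumour-gated cells, for each gene in the antibody library (red circles, upper) and the control library (blue squares, lower), with exact 95% intervals for counting error and dashed lines at 2-fold. Plin2 is above 0 (1.28 and 0.94) and Lpcat3 below 0 (-0.74 and -0.88) in both libraries, and Ptgs2 and Scd1 have opposite signs.

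The other genes were within 2-fold in both libraries and did not all go the same way. Ptgs2 was at 242 CPM in hypoxic and 209 CPM in other antibody cells (0.21, 0.12 to 0.30) but at 133 and 160 CPM in control cells (-0.26, -0.38 to -0.15). Scd1 was at 114 and 124 CPM in the antibody library (-0.12, -0.25 to 0.01) and at 145 and 115 CPM in the control library (0.34, 0.23 to 0.44). Scd2 was nearly level in the antibody library at 228 and 222 CPM (0.04) and was at 241 and 173 CPM in the control library (0.48). Gch1 was at 30.7 and 32.6 CPM (-0.08) in the antibody and 8.51 and 13.0 CPM (-0.60) in the control library. Acsl4 (-0.27 and -0.09), Acsl3 (-0.35 and -0.13) and Aifm2 (-0.32 and -0.07) were below 0 in both libraries, with intervals that included 0 except for Acsl4 and Acsl3 in the antibody library. These signs were not stable: in the antibody library Aifm2 was at 0.69 among cells with no cycling-marker UMI and at -0.98 after thinning, where Acsl4 was at 0.05, and in the control library Acsl3 was at 0.22 after thinning.

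The course over the score was followed in 10 bins of equal cell number. Plin2 climbed in 8 of 9 steps in the antibody library, with 56.4 CPM in the lowest, 74.5 CPM in the fifth and 222 CPM in the highest bin, a 3.93-fold range. In the control library the lowest bin had 98.7 CPM, the fifth 114 CPM and the highest 214 CPM, with 5 of 9 steps upward. Bins are ranks within a library and do not hold the same hypoxia share: the highest had 125.0 hypoxia UMIs per 10000 in the antibody and 86.9 in the control library. The closest pair in share was the fourth antibody bin (28.24 per 10000) and the seventh control bin (28.12 per 10000), with 69.3 and 122 CPM of Plin2. Near the top, the ninth antibody bin (89.9 per 10000) had 166 CPM of Plin2 and the highest control bin 214 CPM. Plin2 was lower with antibody in both pairs of bins, but their median depths differed. These were 20542 and 12170 UMIs in the first pair and 17273 and 9369.5 UMIs in the second. The part of depth in this was not tested. Lpcat3 lay between 32.8 and 37.7 CPM in the antibody and between 38.7 and 41.5 CPM in the control library over the lower 5 bins, and ended at 19.3 and 20.1 CPM in the highest bin. Ptgs2 climbed in the antibody library from 152 CPM in the lowest bin to 248 CPM in the ninth, while in the control library it peaked at 179 CPM in the sixth bin and was at 133 CPM in the highest. Scd1 and Scd2 were highest in the top bin of the control library, at 145 and 242 CPM, and in the third (140 CPM) and sixth (243 CPM) bins of the antibody library. Acsl3 and Gch1 were higher with antibody throughout: the lowest antibody bins, 22.1 and 28.4 CPM, were above the highest control bins, 15.2 and 16.1 CPM.

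**Figure D4:**
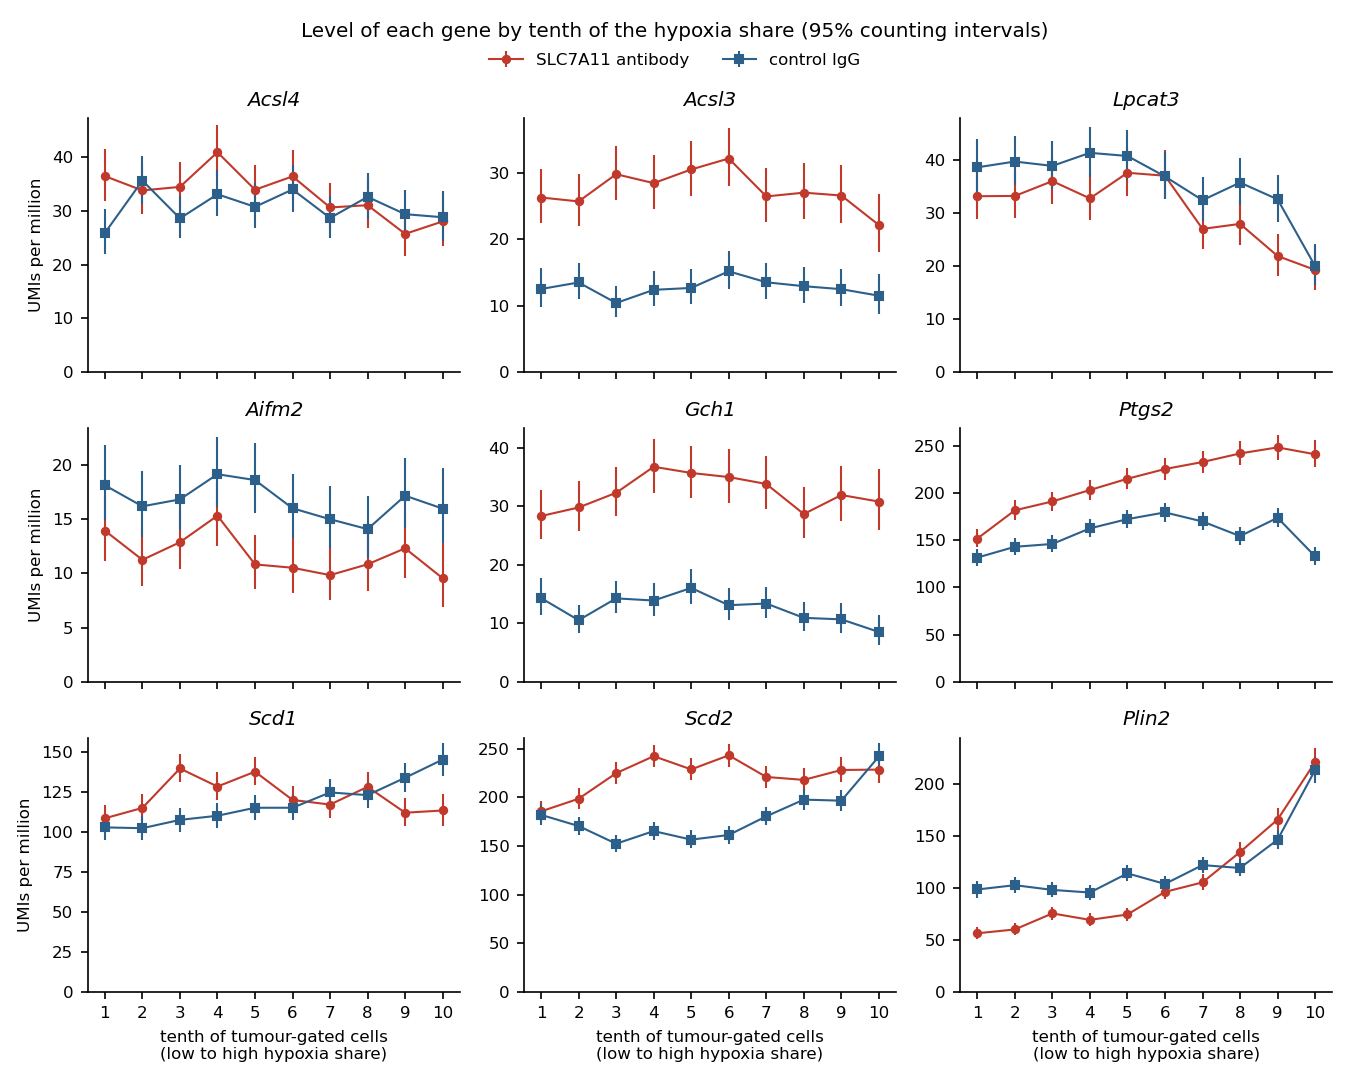
Level of each gene, in CPM with exact 95% Poisson intervals, in 10 bins of tumour-gated cells from low to high hypoxia share, in the antibody (red circles) and control (blue squares) libraries. Plin2 reaches 222 and 214 CPM in the highest bin, Lpcat3 is lowest there (19.3 and 20.1 CPM), and the Acsl3 and Gch1 curves of the 2 libraries do not cross.

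Among the pathway genes, 6 of 96 read in the antibody library were at least 2-fold higher and 16 at least 2-fold lower in hypoxic cells, and 2 higher and 8 lower of 91 in the control library. Of all genes 3.92% were higher and 8.17% lower in the antibody library, and 4.08% and 4.52% in the control library. The median log2 ratio of the pathway genes was -0.35 in each library, against -0.11 over all genes. Hilpda, a hypoxia-inducible lipid droplet protein, went with Plin2, at 417 CPM in hypoxic and 122 CPM in other antibody cells (1.78) and 289 and 72.8 CPM in control cells (1.99). Hmox1, haem oxygenase, was at 152 and 45.4 CPM (1.74) and at 113 and 36.5 CPM (1.63). The remaining 4 higher genes of the antibody library, Plin4 (1.43), Mgll (1.23), Dgat2 (1.07) and Mgst1 (1.05), rested on 6 to 11 UMIs in hypoxic cells. The list of desaturases, elongases and fatty acid synthesis had a median of -0.61 in the antibody and -0.45 in the control library, with 4 and 1 of 13 genes at least 2-fold lower, against 8.17% and 4.52% of all genes, and 0 higher. Elovl6, an elongase, was at -1.499 and -1.38, and Fads2, a desaturase of polyunsaturated chains, at -1.24 and -0.91. Other genes past 2-fold lower in the antibody library included Pla2g6 (3 UMIs in hypoxic cells, -1.81, -4.32 to -0.45), Coq7 (-1.76), Bscl2 (-1.46), Dhodh (-1.43), Pdss1 (-1.40), Ptgis (-1.33) and Insig1 (-1.17). In the control library they were Coq8a (1 UMI, -2.65, -8.54 to -0.72), Lpcat4 (2 UMIs, -2.12, -5.50 to -0.55), Nox1 (-1.597), Fitm2 (-1.38), the constitutive cyclooxygenase gene Ptgs1 (-1.07), Pts (-1.05) and Pex10 (-1.03). Cycling markers were lower in hypoxic cells, at 508 against 1312 CPM and 1020 against 1593 CPM, and their part in these ratios was not tested.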

How the data were processed

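Single cells of dissociated tumour tissue from 1 SLC7A11 antibody and 1 control IgG library were read as 3' tags (10x Genomics), according to the protocols in the labels. For each library the authors deposited a table of raw UMI counts, genes by barcodes. Cell Ranger 7.2.0, Seurat and mm10 are named in the submitters' processing notes; strand and intron settings are not given in the sources used here. A gene absent from 1 table (2768 only in the antibody and 3106 only in the control table, beside 28526 in both) was taken as 0.

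Kept barcodes had 500 or more UMIs, 200 or more genes and a mitochondrial share below 20%. Scrublet in scanpy 1.11.5 scored doublets, and 0.8% per 1000 cells were removed, 1164 antibody and 1537 control cells. No correction for free RNA was made. Classes came from marker UMIs, exclusive of each other. Log2 ratios of class sums used a prior count of 0.5 and genes with at least 20 UMIs; a side with 0 UMIs was set to a floor of 3. Past 2-fold counts as called. Intervals are exact Poisson for levels, conditional binomial for ratios and Clopper-Pearson for shares, at 95%; the intervals cover counting error only. Ratio code was tested on simulated counts. Classes with at least 20 cells per library were described and those with at least 100 counted for calls. Software was matplotlib 3.10.9, pandas 2.3.3, scipy 1.17.1, numpy 2.4.6 and Python 3.11.15.

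The 9 genes, the pathway lists and the markers were chosen with earlier results of these data known. Named genes were the 9, the 3 most similar profiles of each (genes with at least 200 UMIs), and pathway genes past 2-fold, at most 10 each way (all 12 higher ones in tumour-gated cells); pathway genes within 2-fold were named as examples after their values were seen, and 1 pathway gene is not reported here. Promoters came from RefSeq, GRCm38.p6.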

Additional observations from a re-analysis of the deposited data

Results flagged for a closer look

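The hypoxic over other log2 ratio of Ptgs2 was above 0 in the antibody library (0.21) and below 0 in the control library (-0.26), a difference of 0.47 (counting interval 0.33 to 0.61). It kept these opposite signs under all 15 other settings, with 0.10 to 0.44 in the antibody and -0.52 to -0.02 in the control library. That of Scd1 was below 0 in the antibody library (-0.12) and above 0 in the control library (0.34), a difference of -0.45 (-0.62 to -0.29), with -0.31 to -0.06 and 0.14 to 0.43 under the 15 settings. Both were singled out because the log2 ratios of the 2 libraries had opposite signs. The antibody value of Scd1 had an interval that included 0 (-0.25 to 0.01) and lay near the median of all genes (-0.11). Differences with intervals off 0 were also seen for Scd2 (-0.44, -0.56 to -0.31), Plin2 (0.33, 0.20 to 0.47) and Gch1 (0.52, 0.03 to 1.01). Each of these had the same sign in both libraries. With 1 library per group none of these differences was tested.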

How the results depend on the processing

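Gch1 and Acsl3 were past 2-fold between the libraries in tumour-gated cells under all 13 other settings (log2 1.10 to 1.52 and 1.03 to 1.32), and none of the other 7 genes was. Of 378 recomputed member values 0 reversed a called direction and 16 changed the sign of an uncalled one. In the antibody library, hypoxic cells had 2 genes past the threshold with a fold of 1.5 (Lpcat3 and Plin2), 2 without cells holding a C1q UMI (the same 2 genes) and 0 when Car9-positive cells were set against Car9-negative ones (Plin2 0.71). In the control library the count of 0 became 3 with a fold of 1.5 (Lpcat3, Gch1 and Plin2). It became 1 with a looser marker gate, with means over scaled cells and with 1 cut for both libraries (Lpcat3 in each, down to -1.16), and 1 with totals without mitochondrial, ribosomal protein and haemoglobin genes and against the lower-ranked cells (Plin2 in each, up to 1.07). Without cycling cells the antibody count was 1, but of Acsl3 in place of Plin2. The class with the highest level stayed for 4 of 9 genes after thinning to 1000 UMIs and for 6 to 9 under the rest; Gch1, Ptgs2 and Plin2 lost neutrophil-gated cells as the highest class after thinning and with the stricter cell filter, which leave under 20 such control cells, too few to rank. The cause of the other moves was not tested. The cycling, depth and C1q settings, and leaving out cells above 1 hypoxia cut, were chosen after seeing the data.

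No paired analysis was possible because each group has 1 library. Depth limits the shallow classes: in neutrophil-gated cells 7 of the 9 genes had under 20 UMIs over both libraries, and in classes with fewer than 100 cells in a library no counts of calls were made. Median-of-ratios scaling raised the tumour ratios, with Acsl4 at 0.29 in place of 0.12. Thinning put Acsl4 at -0.13 and Scd1 at -0.04.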
